A study of Mus musculus with 8 samples.

Results

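The genes described here encode 10 factors that travel with RNA polymerase II during transcript elongation: Supt6, Iws1, Supt5, Supt16, Ssrp1, Paf1, Ctr9, Rtf1, Leo1 and Cdc73. They were chosen by name, for their link to SETD2 and elongation, and all of their peaks of N6-methyladenosine (m6A) were taken from the 2 peak tables of the study. Of 13110 gene identifiers with a peak in either table, these are 10. They carried 35 of the 25815 peaks of control cells and 39 of the 27612 peaks of knockdown cells. The cells were feeder-free mouse embryonic stem cells grown as spheres in serum-free 2i medium, which holds a MEK inhibitor (PD0325901), a GSK3 inhibitor (CHIR99021) and LIF. All of them carried a doxycycline (Dox)-inducible knockdown of Setd2. Control cells were left without Dox, and the Dox condition means 1 µg/ml of the drug for 4 days. Each condition had 2 IP libraries, made from RNA pulled down with an m6A antibody, and 2 input libraries. Dox and the knockdown came together in every Dox library, so their effects cannot be told apart. The labels do not describe the knockdown sequence or say whether the line is 1 clone.

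Elongation factors keep RNA polymerase II moving through chromatin and couple transcription to histone marks. SPT6 is a histone chaperone that rides on the polymerase, and its partner IWS1 helps SETD2 to place H3K36me3 along transcribed genes. SPT5 forms the DSIF clamp on the polymerase, the FACT pair SPT16 and SSRP1 moves histones out of its way, and the PAF1 complex (PAF1, CTR9, RTF1, LEO1, CDC73) is a platform for factors that mark chromatin behind it. The m6A mark sits mostly in a short consensus called DRACH, is frequent in long internal exons and near stop codons, and is read by the antibody together with the related cap-adjacent mark m6Am at the very start of transcripts.

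Each peak value below is the authors' own: the fold is IP over input for that peak, and the FDR is that of the peak call, given as its log10. Peaks with a log10 FDR of -20 or lower are called strong below. Both replicates of a condition were pooled in the peak calls, so there is 1 value per condition, no replicate spread and no test between conditions. Read depth is unknown. Intervals on percentages are exact 95% ones (Clopper-Pearson) and reflect counting error alone. A fold is a ratio within a transcript and gives no transcript level, and in these bulk cultures a mark lost in some cells cannot be told apart from a weaker mark in all of them. All 8 markers of naive embryonic stem cells that were looked up, Pou5f1, Sox2 and Nanog among them, carried peaks in both lists. Of 4 fibroblast markers, Col1a1 and Vim carried peaks, and Col1a2 and Thy1 had none. Setd2, the targeted gene, had 10 control and 6 Dox peaks, and its transcript level cannot be read from them.

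Sequence near an annotated start is shown for 3 members, to show what lies under a peak there. RefSeq sequences (GRCm38.p6, the assembly of mm10) around a transcript start were given for 8 members, in 9 windows. In the listed windows, 30 bases around a match to DRACH are printed below for Supt6, Supt16 and Leo1, the members whose matches lay under a peak in both lists. Capitals mark the match. All are written 5' to 3' on the transcript strand: chr11:78245782-78245811 (minus) for Supt6, chr14:52197190-52197219 (minus) for Supt16 and chr9:75441544-75441573 (plus) for Leo1.
Supt6: ttaggcgttcgcGGACTcggaaccaaagcc
Supt16: cgagcgcgggtggcggagctgGGACCtcgc
Leo1: agccgagcaagccaaggccgcGGACCaagc
The Supt16 and Leo1 matches begin at base 42, counted from 1 at the start used for their windows. The Leo1 gene interval begins further upstream, at 75441015, so its match lies deeper inside the gene. The Leo1 control peak is centred 4611 nt from the gene's 5' limit and is not counted among 5' end peaks in the positions given later. The Supt6 match begins 96 bases upstream of the start used for its window, yet inside the gene interval, which reaches further. The search covered the 18 forms of 5 letters that DRACH allows (A, G or T, then A or G, then AC, then A, C or T), on the transcript strand, and some forms overlap each other. Under the Supt6 control peak there were 9 such matches, all upstream of the start used for its window and none in the first 50 transcribed bases. In the first 50 transcribed bases, 2 of the 9 member windows held a form, against 54.4% of all 32851 RefSeq windows (55.2% on the other strand). A control peak reached into these 50 bases in 6 of the 9 windows and a Dox peak in 5. How often a peak reaches them over all windows was not counted, so neither number sets the members apart. Paf1, Ssrp1 and Supt5 had a control peak there with no match in the part of it inside the window. The rest of these 3 peaks was not searched. A match is a string of letters and not a measured site.

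Peaks in both lists were found for 9 of the 10 genes, and Cdc73 had a Dox peak only. Over all identifiers with a peak, 79.9% had peaks in both lists. Of the 35 control peaks, 1 had no overlapping Dox peak (2.86%, interval 0.0723% to 14.9%), where overlap means at least 1 exonic nucleotide in common on the same strand. The share over all control peaks was 19.3%. The members' peaks were well supported, with 27 of 35 (77.1%) strong against 34.6% of all control peaks. Among strong control peaks, 0 of 27 in the members (interval up to 12.8%) and 1.36% of all lacked a counterpart. Dox peaks lacking a control counterpart numbered 11 of 39 (28.2%, 15.0% to 44.9%), against 29.1% of all Dox peaks. With a fold of at least 4 required in both lists, 4 of 18 control peaks (22.2%) and 1 of 13 Dox peaks (7.69%) had no counterpart, against 45.7% and 31.6% of all.

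**Figure D1:**
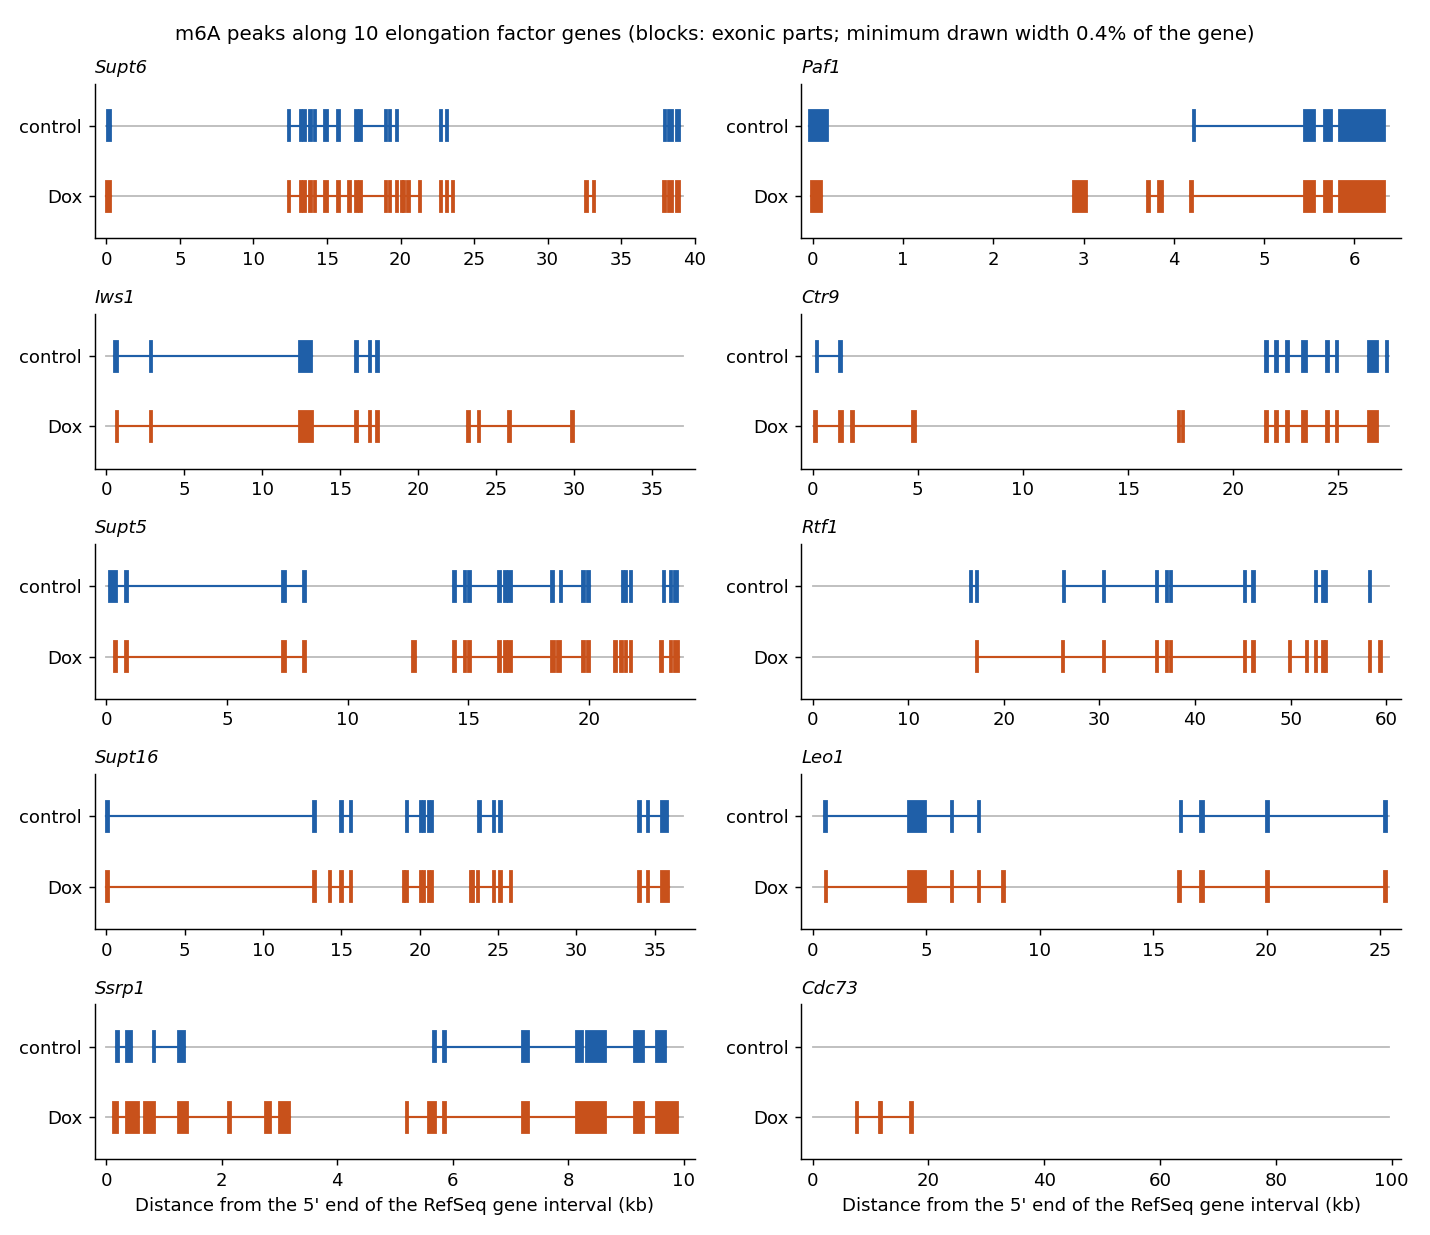
Exonic blocks of every peak of the 10 genes, by distance in kb from the 5' end of the RefSeq gene interval, with control peaks (blue) above Dox peaks (orange) and a line joining the blocks of 1 peak. The 35 control and 39 Dox peaks lie mostly over the same blocks, and Cdc73 has none in control.

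Supt6 encodes the SPT6 histone chaperone. The gene (ENSMUSG00000002052.6) lies on the minus strand of chromosome 11 from 78206749 to 78245972 (mm10, as all positions here). It had 6 control peaks, each with a Dox partner, and 7 Dox peaks. Its strongest control peak lay 880 nt from the 3' end (78207464 to 78208074), with a fold of 7.79 and a log10 p of -358. The Dox peak over it had a fold of 5.08. The peak next to it, closest to the 3' end (78206985 to 78207225), had a fold of 5.65 in control and 6.36 in Dox. At the 5' end, where the printed GGACT lies, the control peak (78245658 to 78245927) had a fold of 4.14 and the Dox peak 5.18. These 2 outer peaks were the Supt6 pairs with the higher fold in Dox, and the other 4 control peaks, folds 5.2 to 7.79, had partners of 2.64 to 5.08. Of the 270 nt of the 5' control peak, 179 nt also lay under a peak of Sdf2, the divergent neighbour on the plus strand, which had a fold of 3.18 in control and 3.64 in Dox. The kit keeps strand, but no source used here says whether the peak calling used it, so reads of Supt6 and Sdf2 cannot be told apart there.

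Inside Supt6, 2 control peaks of 540 nt and 899 nt with folds of 5.31 and 6.14 were covered by 1 Dox peak of 1677 nt in 13 blocks with a fold of 4.22. Supt6 also held 2 Dox peaks without a control peak, at 78224650 to 78225959 (fold 2.09, log10 FDR -12.3) and 78212895 to 78213404 (fold 1.57, log10 FDR -7.21). Both were of low fold and passed a log10 FDR of -5.

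Iws1 encodes the SPT6 partner and had the highest fold of the 10 genes. The gene (ENSMUSG00000024384.3) lies on chromosome 18, plus strand, from 32067326 to 32104331. Its main control peak (32067794 to 32080538) had a fold of 17.4, at a log10 FDR of -312, and an exonic length of 1230 nt, 868 nt of it in 1 block. A second control peak (32083286 to 32084722) had a fold of 2.31 (log10 FDR -5.42). One Dox peak (32067914 to 32084722) overlapped both, with 1110 of the first peak's 1230 nt and all 301 nt of the second, and had a fold of 7.58 at a log10 FDR of -88.0. The Dox fold was lower than that of the first control peak and higher than that of the second. A further Dox peak (32090487 to 32097257) had a fold of 2.99 (log10 FDR -11.8) and no control counterpart.

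Supt5 encodes the large subunit of DSIF. The gene (ENSMUSG00000003435.9; chromosome 7, minus strand, 28314891 to 28338804) had 5 peaks in either list. The peak with the highest fold began at the 5' end in control (28330640 to 28338686; fold 9.23, log10 FDR -304). Its Dox partner (28330580 to 28338507) had a fold of 5.05 and began downstream of the first 50 transcribed bases of the RefSeq window. The control peak covered 17 of these bases. A 7-block control peak (28320233 to 28324416) had a fold of 5.10, and the neighbouring one (28318754 to 28320007) had 2.48. A single 10-block Dox peak over both had 2.61. Towards the 3' end, control folds of 2.23 and 3.66 stood beside Dox folds of 1.97 and 2.70. The gene's Dox-only peak had a fold of 1.46. At the 3' end a peak of the unnamed plus-strand gene ENSMUSG00000109168.1 shared 171 nt with the Supt5 control peak and had similar values (fold 4.24 in control and 2.95 in Dox), so these reads cannot be assigned to 1 gene either.

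The FACT genes had no peak without a counterpart, with 9 control and 8 Dox peaks, and the Dox fold was lower in 4 of the 9 pairs. Supt16 (ENSMUSG00000035726.7; chromosome 14, minus strand, 52160419 to 52197239) had 5 peaks in each list, paired 1 to 1. Their control folds, from the 5' end, were 3.93, 2.46, 7.29, 2.52 and 6.0, and the Dox folds were 4.31, 2.81, 5.32, 2.49 and 4.98. The first of these has the same bounds in both lists (52183995 to 52197239) and holds the printed GGACC. The 2 peaks of highest fold were lower in Dox and the 3 weaker ones were within 1.14 times of control. In the Dox list alone, a peak of Rpgrip1 on the plus strand (fold 2.08) shared 129 nt with the last Supt16 peak.

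Ssrp1 (ENSMUSG00000027067.16; chromosome 2, plus strand, 85037120 to 85047114) had 4 control and 3 Dox peaks. The control folds were 1.70, 1.65, 5.2 and 3.65 from 5' to 3', and the Dox folds were 2.26, 1.90 and 3.75, with the last Dox peak lying over both of the last control peaks. That Dox peak had 1405 exonic nt in 7 blocks and a log10 FDR of -286, below the -176 and -205 of the control peaks it covers. Ssrp1 had the lowest highest fold in control (5.2) of the 9 genes with control peaks.

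Among PAF1 complex genes, the highest control fold was 14.9 in Paf1, 14.8 in Ctr9, 16.4 in Leo1 and 5.58 in Rtf1, and Cdc73 had no control peak. Paf1, which names the complex, lies on chromosome 7, plus strand, from 28392996 to 28399383 (ENSMUSG00000003437.14). Its main peak ran to the 3' end (28397208 to 28399328), with 503 nt in its longest block and a fold of 14.9 in control (log10 p -347). The Dox partner had almost the same bounds, beginning at 28397178, and a fold of 7.11. At the 5' end the folds were 2.80 in control and 1.92 in Dox. The 2 remaining Dox peaks, with folds of 1.79 and 1.61 and log10 FDRs of -2.85 and -2.98, had no control peak.

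Ctr9, which encodes the scaffold of the complex, held the single control peak without a counterpart. The gene (ENSMUSG00000005609.15) lies on chromosome 7, plus strand, from 111028951 to 111056377. That peak, 120 nt from the 3' end (111056198 to 111056317), had a fold of 2.08 (log10 FDR -2.09). Control peaks with folds of 14.8 (111050470 to 111053869) and 11.7 (111055361 to 111055809) were covered by 1 Dox peak (111050470 to 111055809) with a fold of 7.94. Near the 5' end a fold of 3.96 in control stood beside 3.01 in Dox. The 2 Dox-only peaks of Ctr9 had folds of 2.42 and 1.66.

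Leo1, whose product pairs with PAF1, had 2 peaks in each list. The gene (ENSMUSG00000042487.5) lies on chromosome 9, plus strand, from 75441015 to 75466432. The first control peak (75441524 to 75448333) held the printed GGACC and a block of 759 nt, with a fold of 16.4 (log10 FDR -238). Its Dox partner had a fold of 7.23 over the same 759 nt block. The second peak had a fold of 6.26 in control and 4.07 in Dox. A peak of the minus-strand gene ENSMUSG00000097298.1 shared 112 nt with the start of the first control peak, at a log10 FDR of -3.56. The printed stretch lies within this shared part, so reads there cannot be assigned to 1 gene.

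Rtf1, whose product promotes histone H2B ubiquitination, had 5 control and 6 Dox peaks (ENSMUSG00000027304.9; chromosome 2, plus strand, 119675068 to 119735407). Control folds were 1.97, 3.60, 5.58, 3.71 and 1.91 from 5' to 3'. The Dox partners had 3.17 over the first and second, then 2.72, 3.93 and 2.27. The first control peak, 61 nt long with a log10 FDR of -1.90, met its Dox partner by 1 nt, and it counts as shared only under the 1 nt rule. The 2 Dox-only peaks had folds of 2.1 and 3.25, at log10 FDRs of -2.72 and -1.87.

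Cdc73, which encodes parafibromin, had no control peak. Its only Dox peak (143685941 to 143695416 on chromosome 1, minus strand; ENSMUSG00000026361.8) covered 211 nt in 4 blocks with a fold of 1.93 (log10 FDR -4.18). It is not in the authors' shorter list, a subset cut at p 1e-05 and fold 2. Cdc73 thus had no strong peak in either condition.

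**Figure D2:**
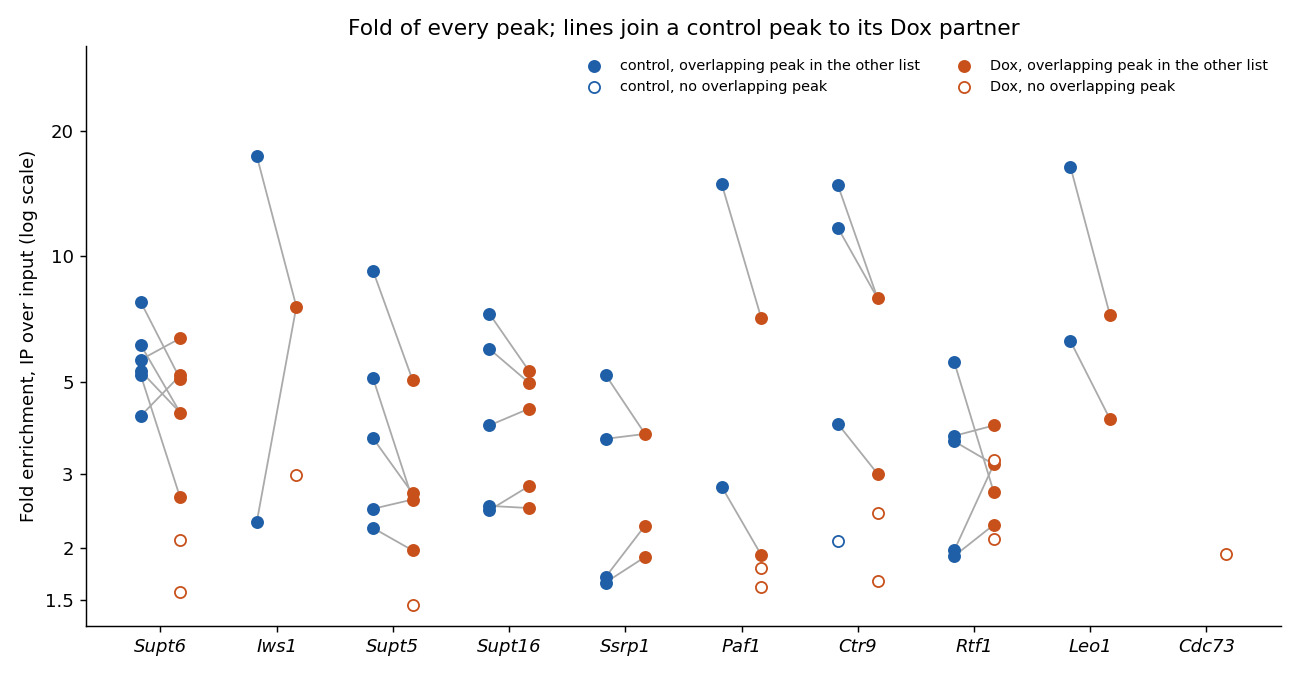
Fold of every peak (IP over input, log axis) by gene, control in blue and Dox in orange, with a line from each control peak to the Dox peak that shares most nucleotides with it; open circles have no overlapping peak. The highest points of Iws1, Leo1, Paf1 and Ctr9 lie between 14.8 and 17.4 in control and between 7.11 and 7.94 in Dox.

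The highest fold was lower in Dox in all 9 genes with peaks in both lists. This was so in 73.6% of all 10481 such genes, and in 86.0% of the 5529 with a strong control peak. The Dox over control ratio of the highest fold ran from 0.436 in Iws1 to 0.816 in Supt6, with a median of 0.547. The quartiles were 0.418 and 0.827 over those 5529 genes. Peak by peak, the Dox partner had the lower fold in 22 of 34 pairs (64.7%) and the higher in 12, against 62.3% lower in all shared control peaks. For strong control peaks it was lower in 21 of 27 pairs (77.8%), against 81.2% of all. The 34 pairs use 28 Dox peaks, as 6 Dox peaks are each the partner of 2 control peaks. In Iws1, Supt5, Ssrp1 and Rtf1 such a Dox peak had a fold between those of its 2 control peaks. It thus counts as higher in 1 pair and lower in the other.

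The size of the difference went with the control fold, in the members as in all genes. Among strong control peaks with folds from 8 up to 20, the median ratio of the Dox to the control fold was 0.507 in 6 member pairs and 0.496 in 2840 pairs of all genes. From 4 up to 8 it was 0.687 in 11 member pairs and 0.744 in 3463. Below 4 it was 1.01 in 10 member pairs and 0.966 in 1968. The member medians thus lay inside the quartiles of all genes in each range, which were 0.385 and 0.620, 0.581 and 0.936, and 0.770 and 1.23. The ranges were set by the control fold itself, so the order of the 3 medians is a description and no test.

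**Figure D3:**
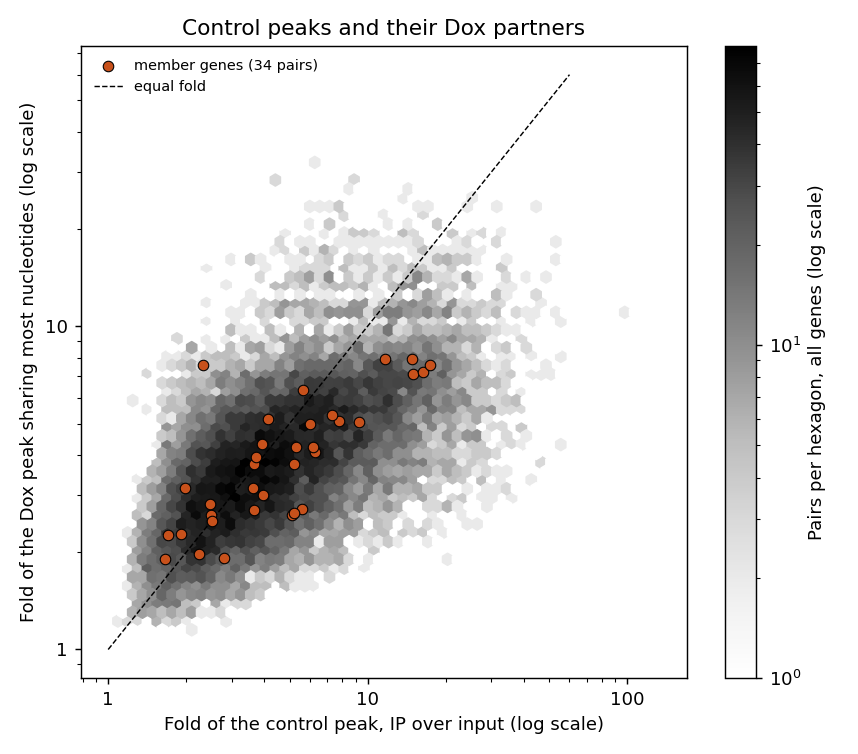
Fold of each shared control peak (x, log scale) against the fold of its Dox partner (y, log scale), as hexagons shaded by the number of pairs over all genes (20832 pairs), with the 34 member pairs as orange points and a dashed line at equal fold. Of the member points, 22 lie below the line and 12 above, and 6 member Dox peaks give 2 points each.

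Peaks of these genes covered more exonic sequence in the Dox list. Covered length was greater in Dox in 9 of 9 genes with peaks in both lists. This was so in 65.7% of all such genes and in 67.9% of those with a strong control peak. The extent ran from 1453 nt in control and 1659 nt in Dox at Leo1 to 1378 nt and 2454 nt at Ssrp1. In sum the members had 14168 nt under control peaks and 18919 nt under Dox peaks, a ratio of 1.34, and all genes together had a ratio of 1.21. Of the members' control nucleotides 94.9% were also under a Dox peak, against 80.4% over all genes. In the other direction the shares were 71.1% and 66.3%. These shares were not matched for peak strength, and 77.1% of member control peaks were strong against 34.6% of all. Among strong control peaks, 0 of 27 in the members and 1.36% of all had no Dox counterpart. In Supt6, Supt16 and Ssrp1 every control nucleotide lay under a Dox peak. The mean fold weighted by peak length was lower in Dox in all 9 genes, for example 14.4 and 6.74 in Iws1 and 3.58 and 3.01 in Ssrp1. It was lower in 74.5% of all 10481 genes with peaks in both lists, and in 86.6% of the 5529 with a strong control peak.

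**Figure D4:**
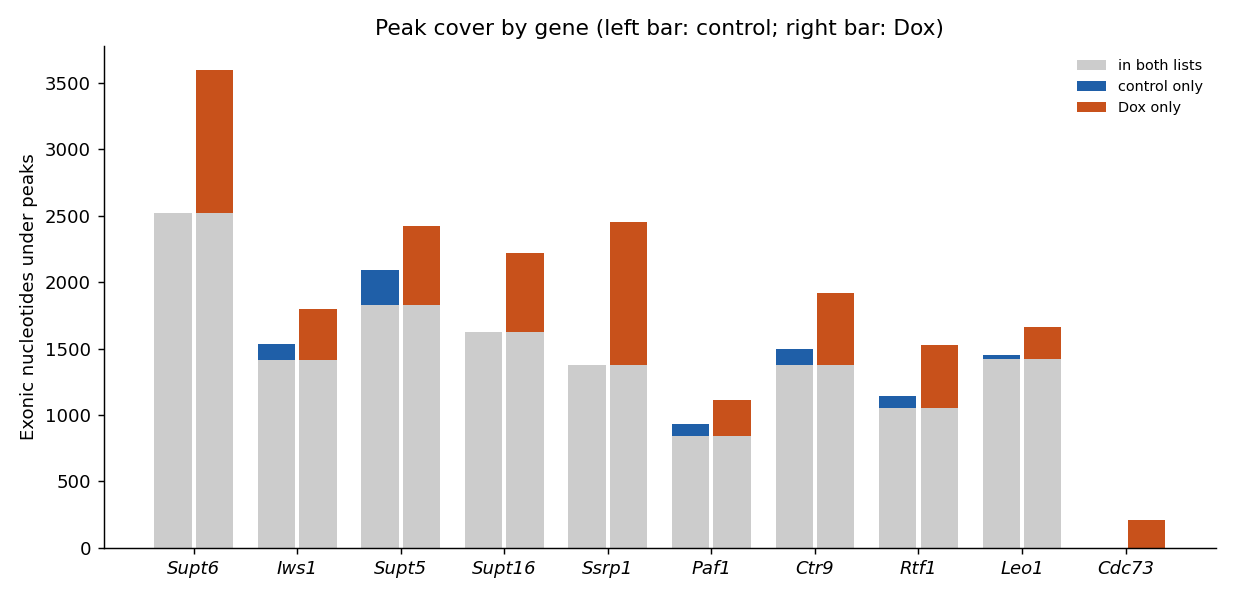
Exonic nucleotides under peaks for each gene, control in the left bar and Dox in the right, split into those in both lists (grey), control only (blue) and Dox only (orange). The Dox bar is the taller in all 10 genes, with Ssrp1 at 1378 nt and 2454 nt.

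Some Dox peaks of these genes spanned 2 control peaks, and the share of all genes with such a peak was not counted. In 6 genes (Supt6, Iws1, Supt5, Ssrp1, Ctr9 and Rtf1) 1 Dox peak overlapped 2 control peaks, which is 6 of 39 Dox peaks (15.4%) against 8.18% of all Dox peaks. Among strong Dox peaks it was 5 of 21 (23.8%) against 17.2%. No control peak of the members overlapped 2 Dox peaks, against 4.93% of all control peaks and 7.26% of strong ones that overlapped at least 2. The 35 member peaks are too few to set the members apart from these shares. The Rtf1 case rests on the overlap of 1 nt. The 11 Dox peaks without a control peak belonged to 7 genes, and their folds lay between 1.46 and 3.25. Of these peaks 8 had a log10 FDR above -5 and 3 had one of -5 or less. Over all genes, 1828 of the 8024 such Dox peaks had a log10 FDR of -5 or less, a similar share.

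The members' peaks were spread over several exonic blocks more often than those of other genes. Of the control peaks 29 of 35 (82.9%) had at least 2 blocks, against 41.2% of all control peaks, and 11 (31.4%) had at least 4, against 7.16%. Among strong control peaks the shares with at least 2 blocks were 92.6% and 57.6%. A block of at least 400 nt was present in 5 of 35 control peaks (14.3%), those of Iws1, Leo1, Paf1, Ctr9 and Supt16, against 11.9% of all. All 5 were strong, and among strong control peaks the share was 5 of 27 (18.5%) in the members against 28% of all. The first 4 of these had folds from 11.7 to 17.4, and the Supt16 peak had 6.0. No exon annotation was used here, so a block may be part of a longer exon.

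By position, 5 control peaks of the members were centred within 500 nt of the gene's 5' limit, 7 within 1000 nt of the 3' end and 23 between. In the Dox list the numbers were 5, 4 and 30. Over all peaks placed in a gene, the shares at the 5' end, at the 3' end and between were 13.4%, 14% and 72.7% in control and 7.93%, 15.6% and 76.5% in Dox. The control 5' end peaks belonged to Supt6, Supt5, Supt16, Ssrp1 and Paf1, and each had a Dox partner. Over all genes 38.9% of such peaks had none. With 0 of 5 lost the interval reaches 52.2%, so a lower rate of loss was not detectable in these genes. The Dox fold was the lower in 2 of the 5 pairs, those of Supt5 and Paf1, and the higher in Supt6, Supt16 and Ssrp1. Over all genes it was lower in 77.0% of 1827 pairs at the 5' end, and 5 pairs are too few to set the members apart. The Dox peak of Supt5 was centred 864 nt from the 5' end against 417 nt in control, and that of Ctr9 224 nt against 1286 nt. Counts at the 5' end can thus shift without loss or gain of a peak. At the 3' end, the Ssrp1 and Ctr9 control peaks with folds of 3.65 and 11.7 had Dox partners centred further inside the gene. The Ctr9 control peak with a fold of 2.08 had no Dox partner.

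A further 44 genes of the elongation machinery, Setd2 included, gave a setting for these values. Peaks in both lists were found for 37 of the 42 with a peak, and Eaf2 and Asf1a matched no identifier. Of their 116 control peaks, 19 (16.4%, 10.2% to 24.4%) had no Dox peak, and of 117 Dox peaks, 28 (23.9%, 16.5% to 32.7%) had no control peak. Their median fold was 4.17 in control and 3.32 in Dox. For the 10 members these medians were 4.14 and 2.81, and for all peaks 4.62 and 3.51. Ube2b, a ubiquitin-conjugating enzyme gene, had a control peak only (fold 3.49). Ccnk (2.20), a cyclin of CDK12 and CDK13, Mllt3 (3.87), of the super elongation complex, Tcea2 (15.2), of the TFIIS family, and Eloc (1.77), an elongin subunit, had Dox peaks only. For their highest peaks the log10 FDRs were, in this order, -18.6, -2.64, -2.86 and -2.68, and of these only Ccnk passed -5.

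The highest control folds of this wider set were those of the kinase gene Cdk13 (34.4), the 7SK snRNP gene Hexim1 (33.2), and Cdk9, the kinase of P-TEFb, and Ell2, an elongation factor (both 25.8). The Cdk13 and Hexim1 peaks were strong, and those of Cdk9 and Ell2 had log10 FDRs of -8.3 and -8.33. The highest Dox folds were those of Spty2d1 (22.8), Tcea2 (15.2) and Nelfb (14.1), a subunit of the pausing factor NELF. Their log10 FDRs were, in this order, -9.79, -2.86 and -29.0. Ell2 had 1 peak in each list and the 2 did not overlap. Supt4a, which encodes the partner of SPT5 in DSIF, had 1 control peak with a fold of 1.95 and 2 Dox peaks, the higher with a fold of 2.20. Wdr61, a further PAF1 complex gene, had 2 control peaks and 1 Dox peak, with highest folds of 3.81 and 2.29. Both were looked at for their place beside the members.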

How the data were processed

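m6A sequencing libraries (8, in 4 groups of 2) were made from sonicated mRNA with a strand-keeping kit, per the labels' protocols. FastQC 0.11.5, TopHat2 2.1.1 and the mm10 build are listed, with no settings, in the submitters' processing notes. The deposited tables carry exomePeak in their names, and its settings are not given here. The authors deposited 1 table per condition with a fold ratio of IP over input, a p-value and the log10 of p and FDR per peak, per the file headers. The deposited shorter lists were checked to be those peaks passing a p-value and fold cut, p 1e-05 and fold 2. Per-library values were not analysed here, so no depth can be given.

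Overlap was counted over exonic blocks with bedtools 2.31.1, and a control peak's Dox partner was the Dox peak sharing most nucleotides with it. The overlap count was tested on simulated data. An identifier was named after the RefSeq protein-coding gene (GRCm38.p6), on its strand where RefSeq gave one, that held at least 50% of its peak midpoints (10675 of 13110 named). Positions used genes of at least 3000 nt. Python 3.11.15, pandas 2.3.3, scipy 1.17.1 and matplotlib 3.10.9 were used.

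All 10 members were named. Of the other elongation genes, those with peaks in 1 list only and the 3 highest folds per list (ties included) were named, and Setd2. The members and lists were chosen with earlier results of these data known. Ranges of control fold, the genes Supt4a and Wdr61 and the choice of printed sites were added after the values were seen.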

Additional observations from a re-analysis of the deposited data

How the results depend on the processing

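The share of member control peaks without a Dox peak was 2.86% in the full tables. It was 0% of 30 peaks (interval up to 11.6%) with both lists, or only the control list, at a log10 FDR of -5 or less, where 21% and 7.56% of all control peaks lacked one. At a fold of at least 4 in both lists it was 22.2%, as 4 control peaks (in Supt6, Supt5, Ssrp1 and Rtf1) had partners under that fold. It was 0% without Ctr9, whose weak 3' end peak is the only one without a counterpart. Among Dox peaks 28.2% lacked a control peak, and this became 13.8% with both lists at a log10 FDR of -5 or less, 10.3% with only the Dox list so limited, 14.8% in the authors' shorter lists and 7.69% at a fold of at least 4. The shares of all Dox peaks under these settings were 22.3%, 11.6%, 22.3% and 31.6%, and 45.7% of all control peaks lacked a partner at a fold of at least 4. The last filter also moved the median Dox fold from 2.81 to 5.18, by its own construction. In the remaining 57 of 67 alternatives, overlap of at least 50% or by whole spans among them, values were inside the interval of the main share or within 1.5 times of the main count or median. With overlap of at least 50%, 5.71% of control peaks lacked a partner, the Rtf1 peak being the addition. Wider windows placed 7 Dox peaks at the 3' end in place of 4. No paired analysis was possible because both replicates of a condition are pooled in each peak table, and leaving out a replicate was not possible for the same reason.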
